A study of Mus musculus with 15 samples.

Results

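The genes described here encode heat shock proteins, J proteins (the DNAJ family) and protein disulfide isomerases, the molecular chaperones that fold proteins and keep them from aggregating. The families were taken by symbol, as every gene whose symbol begins with Hspa, Hspb, Hspd, Hspe, Hsph or Hsp90, with Dnaja, Dnajb or Dnajc and a number, or with Pdia and a number. The rule found 79 genes among the 24982 gene symbols of the count tables. RNA was measured by RNA-Seq in the aortas of 15 male wild-type mice, C57BL/6 in the labels and C57BL/6J in the study's text, 10 months old, with 1 aorta per library and 5 mice in each of 3 groups. Control mice had a sham operation, orchiectomized mice lost their testes, and DHT-treated mice were orchiectomized and carried a pellet of dihydrotestosterone, the androgen that testosterone is converted to in tissues. Every mouse, controls included, recovered from surgery for 2 weeks and then received Aldo-salt for 7 days, that is aldosterone from an osmotic minipump at 200 µg/kg/d with 0.9% NaCl and 0.2% KCl in the drinking water, so no group shows the aorta without Aldo-salt. Each library holds the RNA of a whole aorta with all its cell types.

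Hsp70 proteins bind exposed hydrophobic stretches of unfolded proteins in cycles of ATP hydrolysis, J proteins deliver clients and start the hydrolysis, and nucleotide exchange factors release the client again. Hsp90 takes over clients that are nearly folded, among them the receptors of androgens and of aldosterone, which it keeps ready to bind their hormone. Small heat shock proteins bind unfolding proteins without ATP and are abundant in muscle. In the cytosol heat shock factor 1 raises the inducible members after heat or damage, and in the endoplasmic reticulum (ER) the unfolded protein response raises BiP, GRP94, ER J proteins and disulfide isomerases when the load of secreted protein grows.

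By known location, 20 of the 79 genes act mainly in the cytosol, 7 are small heat shock proteins, 17 act in the ER, 8 in mitochondria, and 27 act elsewhere or are named only after heat shock proteins. At least 10 counts in at least 5 libraries were found for 72 of them, which were tested among 14191 genes. The tested genes were 20 cytosolic, 5 small heat shock, 16 ER, 8 mitochondrial and 23 other genes. The 7 that were not tested had few or no reads. Dnajb8 and Dnajc5g had 0 counts in all 15 libraries, which allows up to 3 counts or 0.384 CPM (counts scaled to library size) in the smallest library, counting error only. Pdia2 had 0 to 15 counts, Hspb3 0 to 13, Dnajc5b 0 to 9, Hspb9 0 to 4 and Dnajb7 0 to 3.

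Library depth, counted as reads on genes, lay between 8268957 and 13816864. The 79 genes together took 1.128% ± 0.0775 (SD, n = 5) of these reads in control mice, 1.091% ± 0.0664 in orchiectomized mice and 1.104% ± 0.0991 in DHT-treated mice, so the groups overlapped. Smooth muscle markers summed to 10800 to 23900 CPM over all libraries, so the main cell type of the labelled tissue was present in each. The orchiectomized mouse of replicate 2 stood apart, with cardiac muscle markers summing to 6990 CPM against 56.5 to 1580 in the rest, with 600 CPM of B and plasma cell markers and with 633 CPM of mesothelial markers, the highest values of all libraries. Results were therefore also computed without it.

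Promoter sequences are shown first for the ER genes that carry the element through which the unfolded protein response acts, because ER genes made up the largest number of the genes that were called. The ER stress response element was searched as CCAAT, 9 bases and CCACG on both strands in the 250 bases before the transcription start, in sequences from RefSeq (build GRCm38.p6) that cover 65 of the 79 genes. It was found in 4 of 15 ER genes (26.7%) and in none of the other members, against 0.13% of 27025 genes in the table. The windows hold the element in capitals with 30 bases on either side, and the coordinates are those of the strand named.
Hspa5 (BiP), chr2:34771995-34772073, plus strand: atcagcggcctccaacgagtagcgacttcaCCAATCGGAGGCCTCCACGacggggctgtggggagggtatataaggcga
Hsp90b1 (GRP94), chr10:86705503-86705686, minus strand: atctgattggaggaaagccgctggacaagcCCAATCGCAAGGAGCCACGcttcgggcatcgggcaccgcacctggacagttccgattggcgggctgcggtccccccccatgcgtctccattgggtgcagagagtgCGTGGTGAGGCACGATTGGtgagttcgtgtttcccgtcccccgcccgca
Dnajc3, chr14:118937797-118937875, plus strand: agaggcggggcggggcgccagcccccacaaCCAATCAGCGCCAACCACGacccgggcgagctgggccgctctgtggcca
Pdia6, chr12:17266461-17266539, plus strand: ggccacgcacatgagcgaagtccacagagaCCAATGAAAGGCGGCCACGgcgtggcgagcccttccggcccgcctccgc

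The element begins 65 bases before the start of Hspa5, 105 before Dnajc3 and 98 before Pdia6. Hsp90b1 holds it in 2 places, of which the second lies on the opposite strand. A C/EBP-ATF element (TTGCATCA, either strand) was in the window of 0 of 65 members and of 0.918% of all genes.

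The heat shock element, to which heat shock factor 1 binds, was searched as 3 alternating units of GAA and TTC with 2 bases between neighbours. It was found for Dnajb6, Hspd1 and Hspe1, 3 of 65 members (4.62%) against 0.514% of all genes. Hspd1 and Hspe1 share 1 promoter between them on chromosome 1 and are read in opposite directions, so their match is the same stretch, shown with all its bases in capitals. For Dnajb6, a J protein that keeps other proteins from aggregating and the only one of these 3 genes that was called, the window has the match in capitals.
Hspe1 and Hspd1 (mitochondrial Hsp10 and Hsp60), 89 to 72 bases before Hspe1: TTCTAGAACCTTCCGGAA
Dnajb6, chr5:29735822-29735894, plus strand: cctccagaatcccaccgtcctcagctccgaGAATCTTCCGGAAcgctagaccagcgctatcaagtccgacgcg

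One arm of the androgen receptor's response element (AGAACA or, on the other strand, TGTTCT) was in 8 of 65 members (12.3%) and in 18.2% of all genes, so it was no more frequent among the members. Of the 8 members, Dnajb1, Dnajb4, Dnajb5, Dnajb13, Dnajc1 and Hspb8 were not called by edgeR in any comparison. The arm is shown for the 2 ER genes that were called in the comparison of DHT-treated with orchiectomized mice and hold it.
Pdia4, chr6:47813632-47813697, minus strand: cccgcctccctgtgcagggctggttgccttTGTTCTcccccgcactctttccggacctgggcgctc
Dnajb11, chr16:22857722-22857787, plus strand: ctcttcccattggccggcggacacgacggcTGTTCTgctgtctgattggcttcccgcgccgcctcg

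A gene was called when edgeR's quasi-likelihood test gave an unadjusted P value under 0.01, and P values adjusted by the Benjamini-Hochberg method over all 14191 genes are given beside it. Differences are log2 fold changes with their standard errors, and levels are CPM. All 3 comparisons rest on the same 15 libraries, and each group serves in 2 of them, so the comparisons are not independent of each other.

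The first question was what loss of the testes did to chaperone expression under Aldo-salt. No member was called between orchiectomized and control mice by edgeR or by DESeq2. At an unadjusted P value under 0.05 edgeR gave 3 higher and 1 lower and DESeq2 3 higher and 4 lower, where of all genes 7.41% were higher and 4.57% lower with edgeR and 6.18% and 6.33% with DESeq2. Among all genes edgeR called 2.11% higher and 1.12% lower and DESeq2 2.24% and 2.27%, and at an adjusted P value under 0.05 the shares were 0% and 0.988%. Shares with DESeq2 are of the 13973 genes to which it gave a P value. The smallest adjusted P value of a member was 0.332. The 72 log2 fold changes ranged from -1.09 to 1.14 with a median of 0.03, against a median of 0.04 for all genes tested. Of the 16 ER genes 13 lay above 0, with a median of 0.104 that was 0.0364 to 0.143 without 1 library. Over all settings and fits 10 to 13 of the 16 lay above 0. Of the 5 small heat shock genes 3 lay above 0, with a median of 0.04 that was -0.0264 to 0.108 without 1 library.

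The 4 members with an unadjusted P value under 0.05, all named here, came from different compartments. Hspa2, an Hsp70 best known from the testis, differed by 0.45 ± 0.16 (adjusted P = 0.332) and Dnajc9, a nuclear J protein that handles histones, by 0.33 (adjusted P = 0.371). Pdia4, a disulfide isomerase of the ER, differed by 0.28 ± 0.12 (adjusted P = 0.392). Dnajc11, a J protein of mitochondrial membranes, differed by -0.45 ± 0.20 (adjusted P = 0.406). Pdia4 was also the only member whose CPM values did not overlap between orchiectomized and control mice, which held for 0.994% of all genes in the higher and 0.507% in the lower direction.

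The second question was what DHT did in orchiectomized mice. Here 4 members were called higher and 7 lower, 5.56% and 9.72% of the 72, where 2.44% of all genes were called higher and 7.35% lower. At an adjusted P value under 0.05 there were 2 members, Dnajb9 and Dnajb6, both lower, where 4.82% of all genes passed, and with DESeq2 11 members did, where 9.28% of all genes passed. The median over the members was -0.05 and that of all genes -0.02. The values did not overlap between the groups for 2 members that were higher with DHT and for 5 that were lower, against 2.05% and 4.38% of all genes. Normalization with RLE size factors in place of TMM gave 5 higher and 4 lower. Without the DHT-treated mouse of replicate 3 no member was called higher. The number called lower fell to 4 without control replicate 1, orchiectomy replicate 2 or DHT replicate 4, to 3 without orchiectomy replicate 4 or DHT replicate 5, and to 2 without orchiectomy replicate 5.

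**Figure D1:**
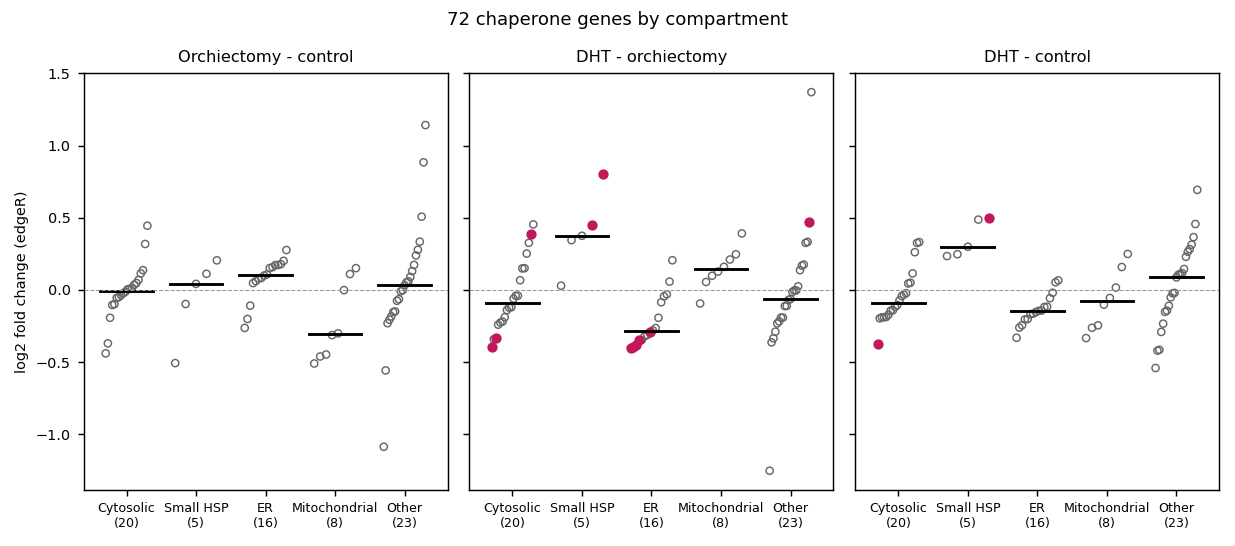
Log2 fold change (edgeR) of the 72 tested genes in the 3 comparisons, by compartment with the number of tested genes in brackets. Each point is 1 gene, filled points were called at an unadjusted P value under 0.01, and bars are medians. In the middle panel the ER genes lie mostly below 0 (median -0.285) and the 5 small heat shock genes above it (median 0.375).

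Among the ER chaperones 5 of 16 tested genes were called lower with DHT than without it (31.2%, against 7.35% of all genes), namely Dnajb9, Pdia4, Dnajc3, Dnajb11 and Pdia3. Of these Dnajb9 alone had an adjusted P value under 0.05, where 3.89% of all genes were lower at that level. None of the 16 was called higher, and 14 had a log2 fold change below 0. At an unadjusted P value under 0.05, 9 were lower and 0 higher, against 13.9% and 7.29% of all genes. The median was -0.285, and it lay between -0.299 and -0.229 when any 1 library was left out and at -0.267 without orchiectomy replicate 2. The number called lower was 7 with DESeq2, of which 5 had an adjusted P value under 0.05 there, where 7.69% and 6.06% of all genes passed these thresholds in that direction. It was 3 with RLE size factors, 2 with a filter of at least 1 count in any library or only the groups compared, and 1 with the replicate number as a block. It fell to 3 without control replicate 1, orchiectomy replicate 1, 2 or 3 or DHT replicate 1, to 2 without orchiectomy replicate 4, and to 1 without orchiectomy replicate 5 or DHT replicate 4 or 5.

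Dnajb9 encodes ERdj4, a J protein of BiP that takes part in the removal of misfolded proteins from the ER. Its CPM values were 64.1, 51.4, 55.2, 52.6 and 56.9 in control mice, 54.3, 59.7, 61.3, 73.5 and 63.7 in orchiectomized mice and 51.7, 43.2, 44.9, 48.4 and 48.4 in DHT-treated mice. Each DHT-treated mouse lay below each orchiectomized mouse, and control mice lay between with overlap on both sides. Dnajb9 was lower by 24.3% with DHT (log2 fold change -0.40 ± 0.09, adjusted P = 0.0249), and its difference from control was -0.24 ± 0.09 (adjusted P = 0.337). Its call in DHT-treated against orchiectomized mice was kept in all 15 fits without 1 library and in all 7 other settings.

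Dnajb11 and Dnajc3 encode further J proteins of BiP. Dnajb11 is ERdj3, a soluble protein that binds unfolded clients, and its CPM values were 69.1, 83.3, 80.1, 80.2 and 82.3 in control, 90.0, 105.9, 78.9, 82.0 and 88.4 in orchiectomized and 73.2, 69.8, 81.9, 65.2 and 73.9 in DHT-treated mice. Only the highest DHT-treated mouse reached the range of the orchiectomized mice. Dnajb11 was lower with DHT by 18.2% (-0.29 ± 0.09, adjusted P = 0.0852). Dnajc3, also known as an inhibitor of the eIF2α kinases PERK and PKR, was at 217.5, 251.3, 195.9, 268.8 and 244.4 CPM in control, 217.4, 205.3, 285.6, 251.8 and 257.3 in orchiectomized and 210.3, 195.2, 192.5, 177.8 and 160.6 in DHT-treated mice. A single DHT-treated mouse was above the lowest orchiectomized mouse. Dnajc3 was lower with DHT by 23.1% (-0.38 ± 0.12, adjusted P = 0.0768), and against control mice its difference was -0.33 ± 0.12 (adjusted P = 0.308). It is the called gene whose promoter holds the ER stress response element shown above.

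Pdia3 and Pdia4 are disulfide isomerases, enzymes that make and rearrange disulfide bonds in secreted proteins. Pdia3 (ERp57) works on glycoproteins together with calnexin and calreticulin, and its CPM values were 426.1, 556.0, 390.5, 522.8 and 496.8 in control, 589.6, 511.5, 536.2, 506.9 and 563.5 in orchiectomized and 437.3, 462.3, 462.5, 371.2 and 396.6 in DHT-treated mice. The DHT-treated and orchiectomized mice did not overlap, while the control mice overlapped both. Pdia3 was lower with DHT by 21.3% (-0.35 ± 0.11, adjusted P = 0.0887). Pdia4 (ERp72) was at 99.6, 127.1, 94.4, 131.8 and 125.5 CPM in control, 135.5, 141.8, 149.0, 132.2 and 142.4 in orchiectomized and 113.5, 119.0, 120.3, 83.0 and 98.1 in DHT-treated mice. All orchiectomized mice lay above all mice of the other groups. Pdia4 was lower with DHT by 23.8% (-0.39 ± 0.12, adjusted P = 0.0737), and DHT-treated mice differed from control mice by -0.12 ± 0.12.

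Hspa5, Hsp90b1 and Pdia6, which hold the ER stress response element, missed the threshold. Hspa5 encodes BiP, the Hsp70 of the ER and the sensor's partner in the unfolded protein response, and measured 596.3, 690.5, 517.8, 619.3 and 710.4 CPM in control, 581.4, 648.7, 659.1, 676.5 and 793.8 in orchiectomized and 584.1, 541.8, 607.5, 526.2 and 539.0 in DHT-treated mice. Most DHT-treated mice were below all orchiectomized mice, and 2 of them were not. The log2 fold change of Hspa5 with DHT against orchiectomy was -0.26 ± 0.11 (adjusted P = 0.184). Hsp90b1 encodes GRP94, the Hsp90 of the ER, and had the values 500.5, 649.4, 419.9, 596.7 and 610.8 CPM in control, 653.0, 674.4, 634.8, 574.7 and 657.0 in orchiectomized and 512.1, 525.8, 550.7, 423.0 and 501.0 in DHT-treated mice. The DHT-treated mice lay below the orchiectomized mice without overlap. Hsp90b1 differed by -0.35 ± 0.12 (adjusted P = 0.112), and its exons share 415 bases with 1810014B01Rik on the opposite strand, whose reads cannot be told apart where strand was not used in counting. Pdia6, a disulfide isomerase that associates with BiP, differed by -0.31 ± 0.11 (adjusted P = 0.104). DESeq2 called both Hsp90b1 and Pdia6.

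**Figure D2:**
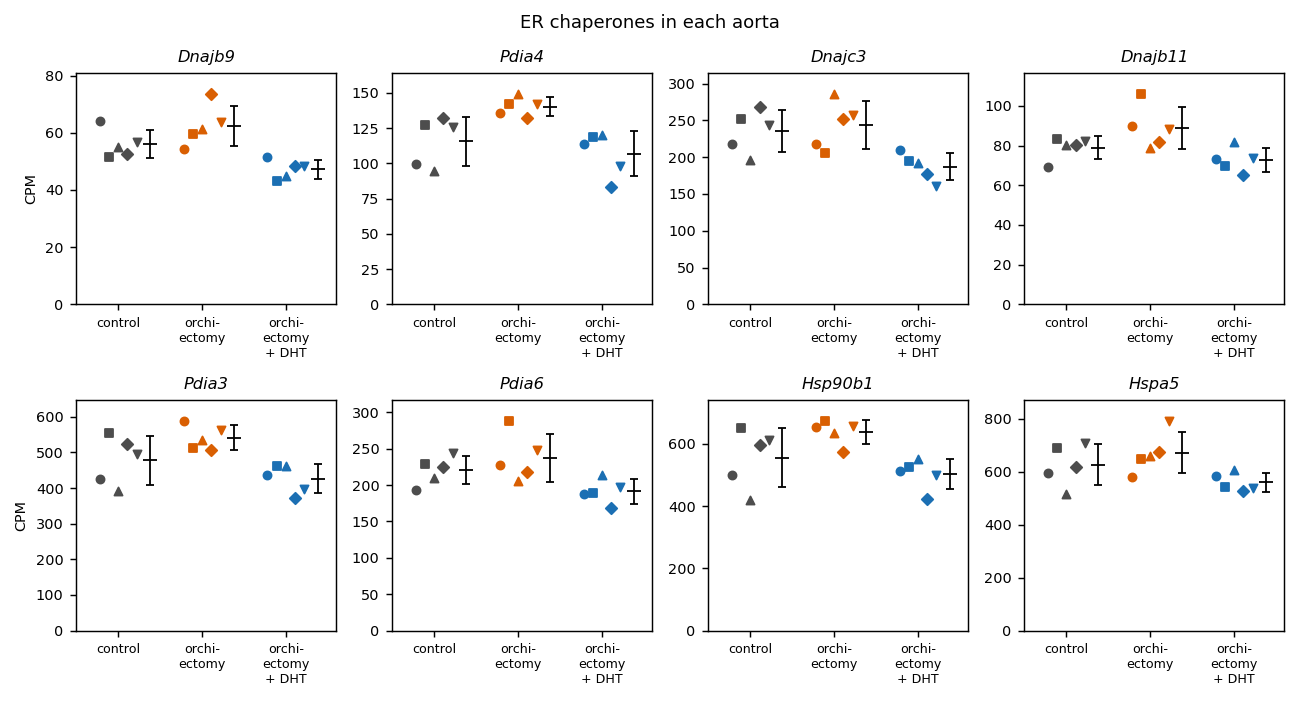
CPM of 8 ER chaperone genes in each of the 15 aortas, with 1 panel per gene and axes that start at 0. Marker shapes stand for replicate numbers, and bars give the mean with the SD of 5 mice. The DHT-treated mice lie below the orchiectomized mice without overlap for Dnajb9, Pdia4, Pdia3 and Hsp90b1.

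The remaining ER genes with DHT against orchiectomy lay between -0.32 (Pdia5) and 0.21 (Dnajb14). They include the J proteins of the ER membrane and of the translocation pore. The widest standard error among the 16 ER genes was that of Dnajc16, 0.22.

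Markers of several cell types differed in the same comparison. Fibroblast markers, genes of the matrix-producing cells of the vessel wall, had a log2 fold change below 0 in 6 of 6 with 1 called lower, and summed to 3550 to 6290 CPM in orchiectomized, 2920 to 4470 in DHT-treated and 3970 to 5790 in control mice. B and plasma cell markers were called lower in 6 of 7 and summed to 70.2 to 600 CPM in orchiectomized, 43.8 to 101 in DHT-treated and 53.5 to 108 in control mice. Mesothelial markers were called lower in 6 of 6, with a median of -3.11, and summed to 46.1 to 633 CPM in orchiectomized, 7.56 to 23.6 in DHT-treated and 35.8 to 93.3 in control mice. T cell markers were also called lower in 6 of 6, with a median of -2.51, and summed to 5.81 to 58.0, 2.82 to 5.40 and 3.46 to 12.8 CPM in the same order. Macrophage markers were called lower in 3 of 6, with a median of -0.80, and summed to 496 to 1280, 270 to 528 and 292 to 750 CPM. Endothelial markers were called lower in 3 of 6, with a median of -0.449, and summed to 801 to 1160, 540 to 726 and 684 to 1020 CPM. None of the markers of these 6 lists was at 0 in any library. On the log2 scale the ER genes averaged 6.55 ± 0.09 (SD, n = 5) in orchiectomized and 6.33 ± 0.08 in DHT-treated mice, while fibroblast markers averaged 8.97 ± 0.30 and 8.28 ± 0.33. The part of these cell types in the ER result was not tested, and in whole aortas fewer cells of a type and less RNA per cell cannot be told apart.

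Among the small heat shock proteins 2 of 5 tested genes, Hspb1 and Hspb6, were called higher in DHT-treated than in orchiectomized mice, against 2.44% of all genes. With edgeR none of the 5 had an adjusted P value under 0.05, and with DESeq2 Hspb1, Hspb6 and Hspb8 had. All 5 log2 fold changes were above 0, from 0.03 for Hspb2 to 0.81 for Hspb1, and the median was 0.375. The number called was 3 with DESeq2, which called 4.62% of all genes higher, and also 3 with RLE size factors or a filter of at least 1 count in any library and 1 with the replicate number as a block. It was 3 without control replicate 1 or 3 or orchiectomy replicate 2, 1 without orchiectomy replicate 4 or DHT replicate 1 or 2, and 0 without DHT replicate 3. Leaving out any 1 library gave a median from 0.326 to 0.487. Against control mice all 5 were above 0 as well, with a median of 0.299, which lay between 0.202 (without DHT replicate 3) and 0.468 (without control replicate 2).

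Hspb1 encodes HSP27, which binds actin filaments and is phosphorylated in stressed cells. Its CPM values were 370.1, 572.7, 449.9, 276.9 and 318.7 in control, 342.7, 290.6, 159.0, 252.9 and 354.5 in orchiectomized and 384.4, 446.2, 707.6, 462.3 and 446.6 in DHT-treated mice. Every DHT-treated mouse exceeded every orchiectomized mouse, and the control mice overlapped both groups. Hspb1 was higher with DHT by 74.8% (0.81 ± 0.24, adjusted P = 0.0674), and against control mice it differed by 0.30 ± 0.24 (adjusted P = 0.64). Without DHT replicate 3, its highest library, the log2 fold change was 0.66 and the call was lost.

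Hspb6 encodes HSP20, a small heat shock protein of smooth muscle that is phosphorylated when the muscle relaxes. It was at 132.0, 137.0, 117.2, 109.7 and 105.2 CPM in control, 145.9, 141.4, 89.4, 100.4 and 141.8 in orchiectomized and 177.6, 174.7, 199.4, 138.6 and 157.2 in DHT-treated mice. The DHT-treated mice all lay above the control mice. Hspb6 was higher with DHT by 36.9% against orchiectomy (0.45 ± 0.15, adjusted P = 0.0895) and by 41.0% against control (0.50 ± 0.15, adjusted P = 0.221). Its exons share 202 bases with Proser3, Gm38670 and Lin37.

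Hspb7 and Hspb8 missed the threshold in edgeR. Hspb7, a small heat shock protein of heart and other muscle, ranged from 438.0 to 601.9 CPM in DHT-treated, 312.7 to 508.8 in orchiectomized and 293.4 to 443.1 in control mice, with log2 fold changes of 0.38 ± 0.17 (adjusted P = 0.219) against orchiectomy and 0.49 ± 0.17 (adjusted P = 0.303) against control. Hspb8, which works with Bag3 in the disposal of damaged muscle proteins, ranged from 203.4 to 251.7 CPM with DHT and from 150.8 to 206.6 without, and differed by 0.34 ± 0.12 (adjusted P = 0.113). DESeq2 called Hspb8 in this comparison and Hspb7 against control. Hspb2 differed by 0.03 ± 0.22 and shares 252 exon bases with Cryab on the opposite strand.

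Muscle markers were compared in the same libraries. All 6 smooth muscle markers had a log2 fold change above 0 with DHT against orchiectomy with a median of 0.434 and none called, and they summed to 13600 to 19500 CPM in control, 10800 to 19600 in orchiectomized and 19100 to 23900 in DHT-treated mice, with none at 0 in any library. On the log2 scale the small heat shock genes averaged 7.09 ± 0.33 (SD, n = 5) in orchiectomized and 7.52 ± 0.17 in DHT-treated mice, and the smooth muscle markers averaged 10.71 ± 0.22 in orchiectomized and 11.20 ± 0.16 in DHT-treated mice. Skeletal muscle markers were called higher with DHT against orchiectomy in 3 of 6 (Acta1, Myh1 and Myh2), with a median of 3.51, and summed to 34.3 to 432 CPM in control, 7.42 to 179 in orchiectomized and 70.0 to 410 in DHT-treated mice. Of these markers Myh2 was at 0 in 2 libraries. Cardiac muscle markers were below 0 in 6 of 6 with 0 called. Their sums were 56.5 to 6990 CPM in orchiectomized and 147 to 977 in DHT-treated mice, and the 6990 was that of orchiectomy replicate 2. The median sums went the other way, with 171 CPM in orchiectomized and 456 in DHT-treated mice. The direction for cardiac muscle therefore depends on how that mouse is weighed. The part of these muscles in the result for the small heat shock genes was not tested. DHT replicate 3 had the highest level of both lists, 7.80 and 11.43.

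**Figure D3:**
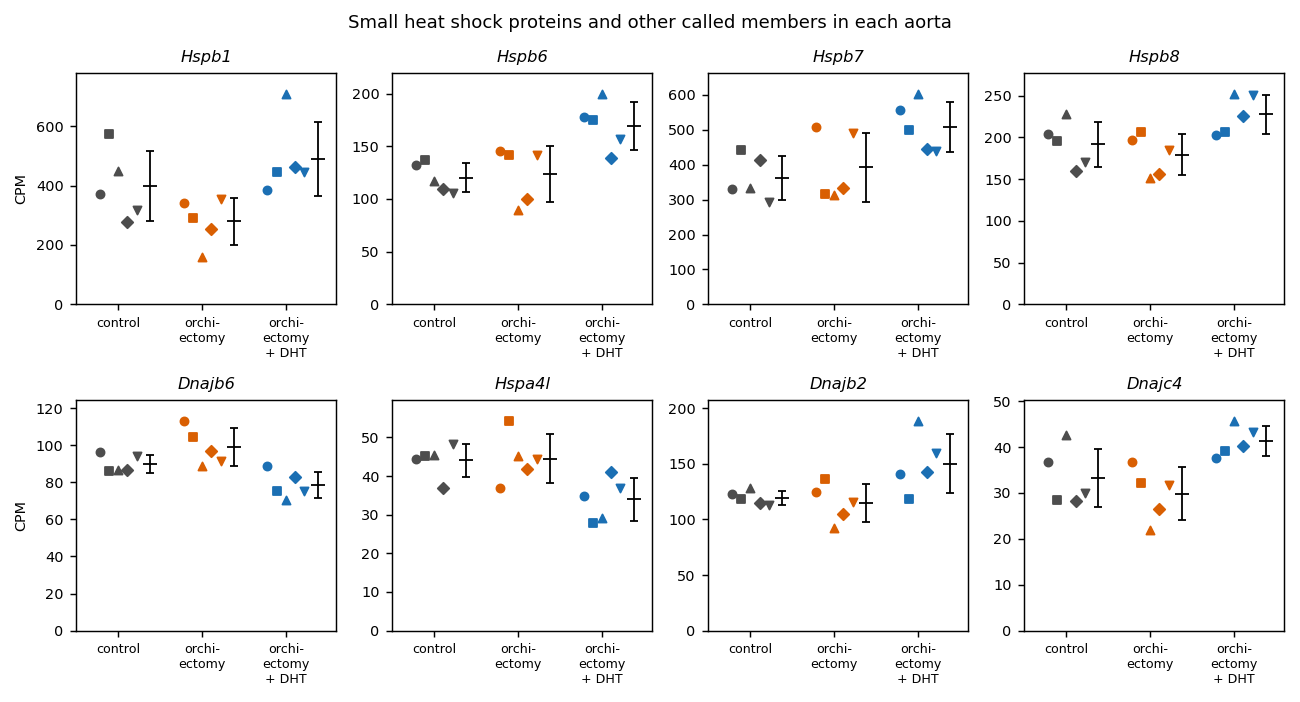
CPM of 4 small heat shock genes and 4 further called genes in each aorta, with axes that start at 0, marker shapes for replicate numbers, and the mean with the SD of 5 mice. DHT-treated mice lie above orchiectomized mice without overlap for Hspb1 and Dnajc4 and below them for Dnajb6, and DHT replicate 3 is the highest library for Hspb1 at 707.6 CPM.

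Of the 20 cytosolic heat shock genes tested, 1 was called higher and 2 lower with DHT against orchiectomy, where 2.44% and 7.35% of all genes were called, and the median was -0.09. Against control mice the median was -0.09 with 1 called lower, and between orchiectomized and control mice it was below 0.01 in size with 0 called by either tool. Leaving out 1 library gave -0.113 to -0.0342, -0.158 to -0.0274 and -0.0774 to 0.0359 for these 3 medians. The mean log2 CPM of the list was 7.01 ± 0.18 (SD, n = 5) in control, 7.02 ± 0.11 in orchiectomized and 6.99 ± 0.15 in DHT-treated mice.

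The inducible Hsp70 genes were not called in any comparison. Hspa1a and Hspa1b encode the inducible Hsp70 and share 58.8% and 62.3% of their 50-base transcript windows, so reads may be split between them or counted for neither. Hspa1a was at 152.8, 272.7, 79.3, 81.0 and 47.5 CPM in control, 121.0, 114.5, 72.8, 80.4 and 101.5 in orchiectomized and 98.3, 156.4, 218.5, 89.2 and 52.6 in DHT-treated mice. Controls and DHT-treated mice each reached both above and below the orchiectomized mice, and control replicate 2 was the highest. Hspa1b was also highest in control replicate 2, at 357.4 CPM, and lowest in DHT replicate 5, at 55.1. The SD within groups was 0.75 on the log2 scale for each, against a median of 0.243 over the members and 0.289 over all genes. With the counts of both genes summed, the log2 fold change was -0.41 ± 0.43 for orchiectomy against control, 0.29 ± 0.43 for DHT against orchiectomy and -0.12 ± 0.43 for DHT against control.

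Hsp90, Hsc70 and their helpers varied much less. Hsp90ab1, the constitutive Hsp90, had the highest level per length of the members, 407.5 CPM per kb of exon, followed by Hspb1 with 377 and Hspa8 (Hsc70) with 306. Hspbap1 with 0.596, Dnajc6 with 0.717 and Dnajb14 with 0.791 CPM per kb were the lowest of the tested genes. Hsp90ab1 measured 1216 ± 84.8 CPM (SD, n = 5) in control, 1197 ± 97.3 in orchiectomized and 1254 ± 131 in DHT-treated mice, and its difference with DHT against orchiectomy was 0.07 with a 95% interval from -0.156 to 0.291. The inducible Hsp90aa1 differed by -0.14 (interval -0.343 to 0.0649), Hspa8 by 0.15 (interval -0.145 to 0.443), the exchange factor Hsph1 by -0.04 (interval -0.385 to 0.306) and the inducible J protein Dnajb1 by -0.24 (interval -0.572 to 0.0912). Dnaja4 stood out in 1 library, at 134.2 CPM in orchiectomy replicate 2 against 38.3 to 55.9 in the other 14.

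**Figure D4:**
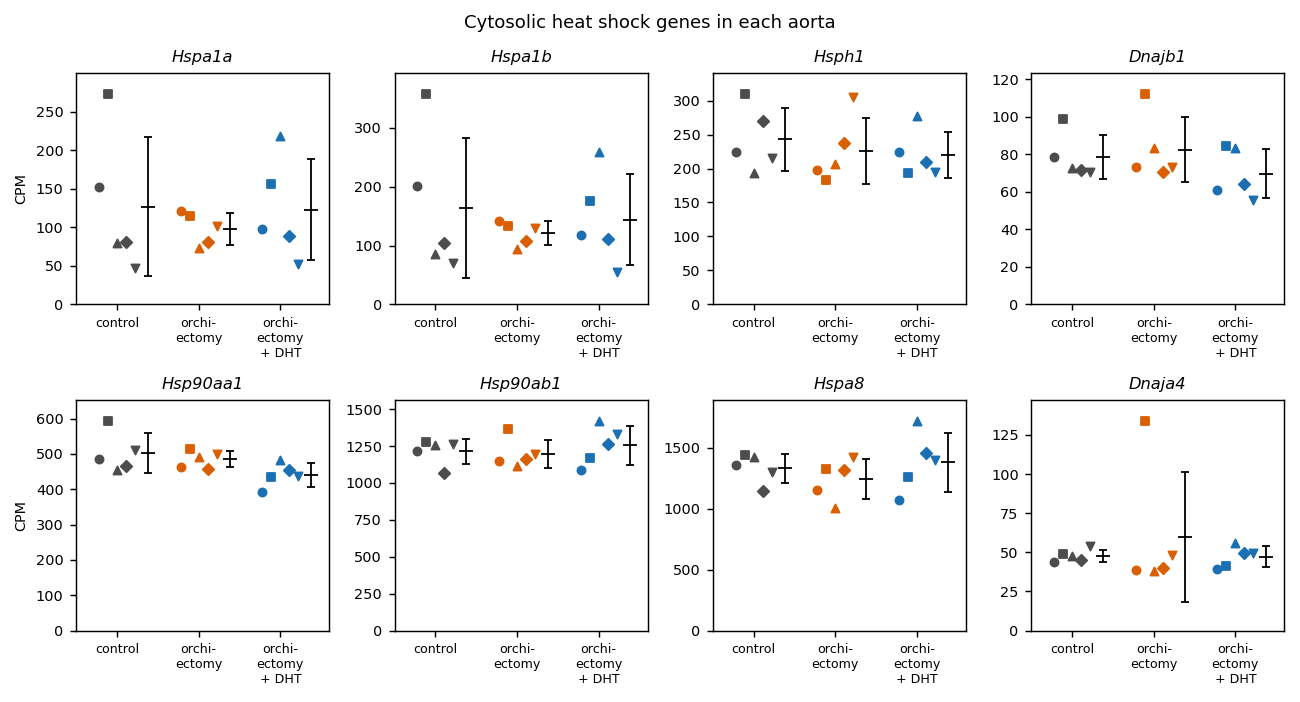
CPM of 8 cytosolic heat shock genes in each aorta, with axes that start at 0, marker shapes for replicate numbers, and the mean with the SD of 5 mice. Hspa1a and Hspa1b spread most within groups, and the groups overlap in all 8 panels.

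The cytosolic genes that were called are J proteins and an exchange factor. Dnajb6, whose promoter with a heat shock element is shown above, was at 96.6, 86.3, 86.4, 86.7 and 94.1 CPM in control, 113.3, 104.6, 88.7, 96.7 and 91.7 in orchiectomized and 88.7, 75.5, 70.3, 82.6 and 75.5 in DHT-treated mice. The highest DHT-treated mouse lay just below the lowest orchiectomized mouse. Dnajb6 was lower with DHT by 20.7% (-0.33 ± 0.09, adjusted P = 0.0418), kept its call in all 15 fits without 1 library, and differed from control by -0.20 ± 0.09 (adjusted P = 0.398). Its exons share 249 bases with Gm5129 on the opposite strand.

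Hspa4l, an Hsp110-type exchange factor of Hsp70, was at 44.5, 45.2, 45.4, 37.0 and 48.2 CPM in control, 36.8, 54.4, 45.2, 41.7 and 44.5 in orchiectomized and 34.7, 27.8, 29.1, 41.0 and 37.0 in DHT-treated mice. DHT-treated mice were mostly low, with overlap on account of DHT replicates 4 and 5. Hspa4l was the only member that edgeR called lower in both comparisons of DHT-treated mice, by 23.8% against orchiectomy (-0.39 ± 0.12, adjusted P = 0.0847) and by 22.9% against control (-0.38 ± 0.12, adjusted P = 0.276). These calls were lost in 9 and 10 of the 15 fits without 1 library, and DESeq2 called Dnajc3 lower in both comparisons as well. Dnajb2, a J protein that binds ubiquitin and passes clients to the proteasome, was at 123.2, 118.2, 128.3, 114.7 and 112.9 CPM in control, 125.0, 136.7, 92.5, 105.0 and 115.7 in orchiectomized and 141.3, 118.4, 189.0, 142.8 and 160.2 in DHT-treated mice. All but 1 of the DHT-treated mice lay above every other mouse. Dnajb2 was higher with DHT by 30.7% against orchiectomy (0.39 ± 0.13, adjusted P = 0.0889) and differed from control by 0.33 ± 0.13 (adjusted P = 0.341). The call was kept in 11 of the 15 fits without 1 library and lost with the replicate block and only the groups compared. Dnajc4, from the genes of other locations, was at 37.6, 39.2, 45.8, 40.3 and 43.3 CPM in DHT-treated mice and at 36.8, 32.1, 21.9, 26.5 and 31.8 in orchiectomized mice, without overlap. It was higher by 38.3% (0.47 ± 0.14, adjusted P = 0.0773), with the call lost without DHT replicate 3 and with the replicate block.

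The 23 tested genes of other locations held 1 call, that of Dnajc4, and their medians were 0.03 for orchiectomy against control, -0.06 for DHT against orchiectomy and 0.09 for DHT against control. Hspa12b, an Hsp70 relative of endothelial cells, differed by -0.41 in DHT-treated against control mice (adjusted P = 0.368). Endothelial markers were called lower in 3 of 6 in that comparison and summed to 684 to 1020 CPM in control, 801 to 1160 in orchiectomized and 540 to 726 in DHT-treated mice, with none at 0, and their part in Hspa12b was not tested. Dnajc14 varied least within groups of all members, with an SD of 0.073 on the log2 scale, and Dnajc6 most, with 1.63 and levels from 0.0856 to 13.9 CPM. Dnajb13 measured 14.4 CPM in orchiectomy replicate 2 and 0.407 to 2.40 CPM in the other 14 libraries, and shares exon bases with Ucp2 on the opposite strand.

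The mitochondrial chaperones Hspa9 (mortalin), Hspd1 (Hsp60) and Hspe1 (Hsp10), which import and fold proteins in the matrix, were not called. With all 15 libraries none of the 8 mitochondrial genes was called in any comparison by edgeR or DESeq2. Without control replicate 4 edgeR called Dnajc11 lower in orchiectomized than in control mice (-0.57). With all libraries edgeR gave 1 of the 8 lower at an unadjusted P value under 0.05 between orchiectomized and control mice and 0 in the other comparisons. DESeq2 gave 2 lower between orchiectomized and control mice and 0 elsewhere. Of all genes DESeq2 gave 9.91% higher and 12.5% lower at that level with DHT against orchiectomy and 6.31% and 6.96% with DHT against control. The medians were -0.306 for orchiectomy against control, 0.144 for DHT against orchiectomy and -0.08 for DHT against control. Leaving out 1 library moved the first between -0.46 (without control replicate 4) and -0.226 (without orchiectomy replicate 3) and the second between 0.07 (without orchiectomy replicate 3) and 0.233 (without DHT replicate 1 or 2). The third lay between -0.232 (without control replicate 4) and 0.0307 (without control replicate 1), and it was above 0 without control replicate 1 or 3 or DHT replicate 1 or 2. Hspa9 was at 889.7, 568.2, 921.2, 407.4 and 839.5 CPM in control, 592.2, 455.5, 427.3, 631.9 and 527.6 in orchiectomized and 409.1, 430.4, 632.4, 778.3 and 628.2 in DHT-treated mice. In control mice 3 libraries were high and 2 low, and the groups overlapped. Hspd1 ranged from 226.0 to 435.5 CPM in control, 229.8 to 344.4 in orchiectomized and 224.0 to 399.9 in DHT-treated mice, and Hspe1 from 85.5 to 158.1, 76.9 to 162.0 and 107.0 to 176.9. Their log2 fold changes with DHT against orchiectomy were 0.06 (95% interval -0.371 to 0.482) and 0.16 (interval -0.308 to 0.629), and their exons share 112 bases on opposite strands.

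Brown adipocyte markers, from the fat around the vessel, had log2 fold changes below 0 in 6 of 6 for orchiectomy against control with 1 called and above 0 in 5 of 6 for DHT against orchiectomy with 0 called, and summed to 1120 to 4590 CPM in control, 1140 to 2240 in orchiectomized and 1610 to 4470 in DHT-treated mice, with none at 0. The SD of the mitochondrial list was 0.42 in control, 0.28 in orchiectomized and 0.31 in DHT-treated mice on the log2 scale, and that of the marker list 0.77, 0.38 and 0.59. In control replicates 2 and 4 both were low, at 6.41 and 6.08 for the chaperones and 7.27 and 6.51 for the markers. The part of brown fat in these values was not tested.

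**Figure D5:**
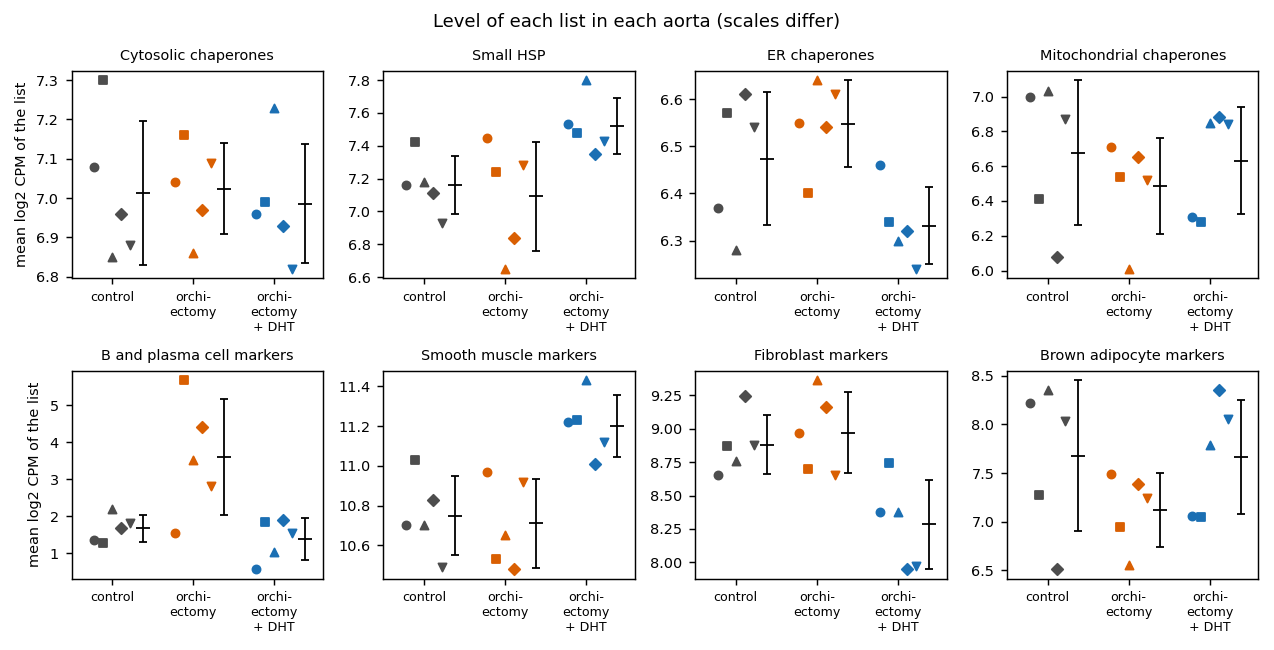
Mean log2 CPM over the tested genes of 4 chaperone lists (top) and 4 marker lists (bottom) in each aorta, with a scale of its own in each panel. Marker shapes stand for replicate numbers, and bars give the mean with the SD of 5 mice. The ER list averages 6.55 in orchiectomized and 6.33 in DHT-treated mice, and the small heat shock list 7.09 and 7.52.

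The third comparison set DHT-treated against control mice and asked what an added androgen left different from intact testes. Of the 72 members 1 was called higher (Hspb6) and 1 lower (Hspa4l), where 1.53% of all genes were called higher and 2.01% lower. No member had an adjusted P value under 0.05 with edgeR or with DESeq2, against 0.261% of all genes with edgeR and 1.63% with DESeq2. At an unadjusted P value under 0.05 edgeR gave 6 higher and 7 lower, where 5.33% and 6.5% of all genes passed. The values did not overlap for 2 members that were higher with DHT, Hspb6 and Dnajc17, and for 1 that was lower, Dnaja2, where 1.78% of all genes did so in each direction. The ER genes lay below 0 in 14 of 16 with a median of -0.149 and 0 called by edgeR, 2 being lower at an unadjusted P value under 0.05, and DESeq2 called 1, Dnajc3, where it called 2.35% of all genes higher and 2.61% lower. That median was -0.23 without control replicate 3 and -0.112 without control replicate 5. In the same comparison fibroblast markers were below 0 in 6 of 6 with a median of -0.437 and 2 called lower, mesothelial markers in 6 of 6 with a median of -2.27 and 4 called, macrophage markers in 6 of 6 with a median of -0.497 and 0 called, and endothelial markers in 6 of 6 with a median of -0.34 and 3 called. Their part in the ER values was not tested. Hspb6 was not called without control replicate 4, control replicate 5 or DHT replicate 3, and Hspa4l was kept in 5 of 15 fits without 1 library.

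The genes that regulate or assist these chaperones were counted from lists of known pathway members, to be read against the shares of all genes called, 2.44% higher and 7.35% lower with DHT against orchiectomy. Calls in these and the later pathway lists are those of edgeR. In the heat shock factor 1 list of 15, only Hsf1 itself was called, higher with DHT against orchiectomy (0.30 ± 0.09, adjusted P = 0.0632), at 54.3 to 67.4 CPM with DHT and 41.6 to 55.6 without. Its call was lost without DHT replicate 1. Its targets and partners Bag1 (0.47, adjusted P = 0.199) and Cdc37 (0.21, adjusted P = 0.285) had the next smallest P values there. Between orchiectomized and control mice the smallest were those of Ahsa2 (-0.20), Hsf2 (0.17) and St13 (-0.14), and St13 differed by -0.30 (adjusted P = 0.317) with DHT against control. The medians of the list were 0.05, 0.04 and 0.11 for orchiectomy against control, DHT against orchiectomy and DHT against control.

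In the unfolded protein response list of 30, which holds none of the 79 genes, 1 gene was called in each of the first 2 comparisons. Derl3, which takes part in removal of proteins from the ER, was higher after orchiectomy (1.64 ± 0.53, adjusted P = 0.295) and differed by -1.13 ± 0.52 (adjusted P = 0.223) with DHT, as B and plasma cell markers did, and the part of these cells was not tested. Its call was lost without control replicate 1, 3 or 4 or DHT replicate 3 and with only the groups compared. Erp44, which holds back unfinished secreted proteins by their cysteines, was lower with DHT (-0.28 ± 0.09, adjusted P = 0.0961) and differed by 0.21 (adjusted P = 0.406) after orchiectomy. Its call was kept only without control replicate 2, 3 or 4 or DHT replicate 1 among the fits without 1 library. It was also lost with RLE size factors, at least 1 count in any library, only the groups compared and the replicate block. Ddit3, the CHOP factor of lasting ER stress, differed by 0.44 ± 0.17 (adjusted P = 0.139) with DHT, and Herpud1 by 0.34 (adjusted P = 0.407) after orchiectomy. With DHT against orchiectomy 20 of the 30 genes lay below 0 with a median of -0.152. Against control mice 0 were called, and Edem1 (-0.30), Atf6 (-0.24) and Erp29 (0.31) had the smallest P values.

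The CCT chaperonin, a cytosolic ring that folds actin and tubulin, was measured through its 8 subunit genes. Cct5 was called lower with DHT against orchiectomy (-0.27 ± 0.07, adjusted P = 0.0413), and 7 of the 8 lay below 0 with a median of -0.122. Cct8 (-0.24, adjusted P = 0.157) and Cct4 (-0.15, adjusted P = 0.312) came next. The same 3 genes had the smallest P values after orchiectomy, with log2 fold changes of 0.17, 0.18 and 0.15. Against control mice 0 were called, with Cct5, Tcp1 and Cct7 at -0.10, -0.11 and 0.09.

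Of the 11 genes of mitochondrial protein quality control 0 were called by edgeR in any comparison, and all 11 lay below 0 after orchiectomy with a median of -0.307. Lonp1, the matrix protease, differed by -0.53 ± 0.19 (adjusted P = 0.331), Clpx by -0.50 (adjusted P = 0.395) and Afg3l2 by -0.52 (adjusted P = 0.407). With DHT against orchiectomy Clpp was at 0.48 (adjusted P = 0.211), Lonp1 at 0.36 and Yme1l1 at -0.21, and with DHT against control Clpx was at -0.54 (adjusted P = 0.369), Grpel2 at -0.19 and Yme1l1 at -0.23. Brown adipocyte markers had the directions given above in the same libraries.

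Clock and cold-inducible genes and immediate early genes were counted because heat shock genes are known to follow the time of day, body temperature and the handling of tissue. Of 16 clock and cold-inducible genes 6 were called higher and 2 lower after orchiectomy, 0 higher and 2 lower with DHT against orchiectomy, and 5 higher and 1 lower with DHT against control, where the shares of all genes were 2.11% and 1.12%, 2.44% and 7.35%, and 1.53% and 2.01%. Dbp was higher by 2.19 ± 0.35 after orchiectomy (adjusted P = 0.0962) and by 1.80 ± 0.34 in DHT-treated against control mice (adjusted P = 0.0471). After orchiectomy Arntl was lower (-0.74) and Tef higher (0.72), and Tef (0.54) and Per1 (0.86) were higher with DHT against control. With DHT against orchiectomy the cold-inducible Rbm3 was lower (-0.65 ± 0.17, adjusted P = 0.0447), as was Hlf (-0.67), whose call was lost without orchiectomy replicate 2 or 4 or DHT replicate 2, 3 or 5, and Nr1d2 was at -0.48 (adjusted P = 0.167).

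None of the 12 immediate early genes was called in any comparison, and the medians were 0.442, -0.432 and below 0.01 in size. Nr4a1 (0.94, adjusted P = 0.37), Egr2 (0.80) and Btg2 (0.55) were first after orchiectomy, Egr2 (-0.97, adjusted P = 0.113), Egr1 (-0.65) and Junb (-0.59) with DHT against orchiectomy, and Zfp36 (0.24), Btg2 (0.32) and Nr4a1 (0.34) with DHT against control. On the log2 scale the list averaged 5.50 ± 0.40 (SD, n = 5) in control, 5.85 ± 0.60 in orchiectomized and 5.51 ± 0.38 in DHT-treated mice. Control replicate 2, where Hspa1a and Hspa1b were highest, had the highest level of its group, 6.02, and the 2 lowest control mice, replicates 3 and 5, had 5.12 and 5.09. In the other groups the highest Hspa1a and the highest level were in different mice. Orchiectomy replicate 2 had the highest level, 6.68, with Hspa1a at 114.5 CPM, below replicate 1 at 121.0. DHT replicate 2 had 6.02 with Hspa1a at 156.4 CPM, and replicate 3, where Hspa1a was highest at 218.5 CPM, had 5.82. The part of time of day and handling in the chaperone levels was not tested.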

How the data were processed

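RNA-Seq was done on 15 aortas, 1 per library and 5 per group, with groups and replicate numbers from the labels. Per the deposited files, the values are raw read counts for each gene symbol, not normalized by the authors. The submitters' processing notes name STAR, Cufflinks, DESeq2 and mm10, without versions or roles. The counting program, its annotation and its use of strand are not given in the sources used here. The 2 entries that are not genes were left out, and they held 6.26% to 14.4% and 1.34% to 1.97% of the reads. The 14.4% was that of DHT replicate 4, with at most 10.4% in the other libraries. Without that library 1 ER gene was called lower with DHT against orchiectomy. Genes with at least 10 counts in at least 5 libraries were fitted in R 4.3.3 with edgeR 4.0.16 (TMM, quasi-likelihood, 3 groups, 15 libraries). The call threshold is the one the study gives for its DESeq2 results over the 3 groups, applied here to edgeR's pairwise tests. The biological coefficient of variation was 0.298. Standard errors are the log2 fold change divided by the square root of F, and 95% intervals use the t distribution with the test's degrees of freedom (15.0). The method was tested on simulated data. The mean log2 CPM of a list used a prior count of 3. A gene's level per length used exon bases of GENCODE M21 (GRCm38).

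The labels do not say whether mice of a group shared a cage or a day. None of the 105 pairs of libraries agreed within sampling noise. The symbol rule, and with it the members, and the lists were chosen with earlier results of these data known. Named with values are members with P under 0.01, a list of well-known members, the 3 highest and 3 lowest per length, members that failed the filter, and the 3 genes of each pathway list with the smallest P in each comparison. Other genes named were chosen after their values were seen. The alternatives were RLE size factors, DESeq2 1.42.0, 2 other filters, only the groups compared, the replicate number as a block, a robust fit, Hspa1a and Hspa1b summed, and each library left out. Figures used matplotlib 3.10.9.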

Additional observations from a re-analysis of the deposited data

Results flagged for a closer look

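In 138 sets of 5 mice (41 tested members named with values and the 5 chaperone lists, in each group) the gap between an extreme mouse and its nearest neighbour was compared with Dixon's 95% critical value, which chance passes in about 1 set in 20, and 8 passed. Of the 41 members 12 were chosen after their values were seen, among them Dnaja4, Dnajb13 and Dnajc9. The rate of 1 in 20 does not hold for these. Dnajb11 was low in control replicate 1, at 69.1 CPM with the next mouse at 80.1. Dnajb14, an ER membrane J protein, was low in orchiectomy replicate 2, at 8.13 CPM with the next at 11.6. Hsp90ab1 was low in control replicate 4, at 1070 CPM with the next at 1220. Dnaja4, a cytosolic J protein, was high in orchiectomy replicate 2, at 134 CPM with the next at 48.0, as was Dnajb13, at 14.4 CPM with the next at 1.17, and cardiac muscle, B and plasma cell and mesothelial markers were highest of all libraries in that mouse. Dnajc9 was low in DHT replicate 4, at 17.5 CPM with the next at 24.0. Hspb1 was high in DHT replicate 3, at 708 CPM with the next at 462, and that library also had the highest smooth muscle marker level. The mitochondrial chaperone list was low in orchiectomy replicate 3, at 6.01 mean log2 CPM with the next at 6.52, and the brown adipocyte markers of that mouse were the lowest of its group at 6.55.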

How the results depend on the processing

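The median log2 fold changes of the 4 chaperone lists moved by less than the spread between mice under all 7 other settings and all 15 fits without 1 library. That spread is the SD of the list's mean log2 CPM within groups, pooled over the 3 groups. Without 1 library some medians changed sign. These were the mitochondrial one against control with DHT (-0.232 to 0.0307) and, after orchiectomy, the cytosolic (-0.0774 to 0.0359) and small heat shock ones (-0.0264 to 0.108). No called gene changed direction in any setting or fit. The counts of called members moved more. With DHT against orchiectomy 4 members were called higher and 7 lower. The replicate number as a block gave 1 and 2, RLE size factors gave 4 lower, a filter of at least 1 count in any library 3 lower, and a fit of only the groups compared 3 lower. Leaving out 1 library gave 0 to 6 higher and 2 to 7 lower. With DHT against control, 1 higher and 1 lower became 3 and 2 with DESeq2, 3 and 0 with only the groups compared, and 0 lower with the replicate block, and leaving out 1 library gave 0 to 3 and 0 to 3. Between orchiectomized and control mice only the fit without control replicate 4 called members, 1 higher (Hspa2) and 1 lower (Dnajc11), so 0 to 1 in each direction. Pathway genes called lower after orchiectomy rose from 2 to 4 with DESeq2 (1 to 5 without 1 library). With DHT against orchiectomy they were 1 higher, or 2 with DESeq2 (0 to 2), and 4 lower (2 to 5). With DHT against control they were 5 higher (3 to 6) and 1 lower, or 2 with DESeq2 or only the groups compared (1 to 3). The cause of these changes was not tested.

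Dnajb9 and Dnajb6 kept their calls with DHT against orchiectomy in every setting and fit. The replicate block lost the calls of Hspb1, Dnajc4, Dnajb2, Pdia4, Dnajc3, Dnajb11, Pdia3 and Hspa4l, only the groups compared those of Dnajb2, Hspb6, Dnajc3, Dnajb11, Pdia3 and Hspa4l, the filter of at least 1 count those of Dnajc3, Dnajb11, Pdia3 and Hspa4l, and RLE size factors those of Dnajb11, Pdia3 and Hspa4l. Hspb1 and Dnajc4 also lost theirs without DHT replicate 3 (log2 fold change 0.66 and 0.45). Dnajb2 lost its call without control replicate 2, orchiectomy replicate 5 or DHT replicate 3 or 5, and Hspb6 without orchiectomy replicate 4 or DHT replicate 1, 2 or 3. Pdia4 lost its call without 6 libraries (orchiectomy 2 to 5, DHT 4 and 5), Dnajc3 without 7 (control 1, orchiectomy 3 to 5, DHT 3 to 5), Dnajb11 without 8 (control 3, orchiectomy 1, 2 and 5, DHT 1, 2, 4 and 5), and Pdia3 (control 1, orchiectomy 1 and 3 to 5, DHT 1 and 3 to 5) and Hspa4l (control 1 and 3, orchiectomy 2 to 5, DHT 1 to 3) without 9 each. Against control Hspa4l lost its call with the replicate block, with only the groups compared and without 10 (control 1 to 3 and 5, orchiectomy 3 to 5, DHT 1 to 3), at -0.46 to -0.31. With DHT against orchiectomy the log2 fold changes over all settings and fits were 0.31 to 0.47 for Dnajb2, 0.39 to 0.54 for Hspb6, -0.43 to -0.29 for Pdia4, -0.42 to -0.29 for Dnajc3, -0.32 to -0.21 for Dnajb11, -0.38 to -0.28 for Pdia3 and -0.45 to -0.30 for Hspa4l. Same-numbered mice are not shown to be paired. Their deviations from the group means correlated by -0.463 to 0.46 over 15 pairs, 4 of them above 0.1. In 3 of the 15 pairs the own number was the best match, so the block is only an alternative. Of 110 uncalled values of the 41 tested members named with values, 12 passed the threshold in some setting or fit. Depth limits the 7 untested members.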
